A study of Mus musculus with 16 samples.

Results

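The genes studied were the 4 mouse members of the Foxn family of forkhead transcription factors, Foxn1, Foxn2, Foxn3 and Foxn4, among 21887 protein-coding genes. They were chosen as members of the family, not by a measured value, and every peak of 3 peak lists that lay in a gene's body or within 50 kb of either of its ends was taken. The lists come from CUT&RUN, in which an antibody on a chromatin protein directs a nuclease to cut out the DNA beneath it, and there was 1 list each for Foxn3, Foxn4 and the ciliary regulator Rfx3. All assays used retina of CD-1 mouse embryos at embryonic day 16, pooled and dissociated, with about 300000 live cells per assay. Foxn3 was assayed in 4 libraries, and Foxn4 and Rfx3 in 2 each, with 8 further libraries made with control rabbit or mouse IgG. Nuclease digestion lasted 1 h, but about 12 h for Foxn4 and its mouse IgG. The replicates of an antibody are not separated in its list and IgG signal was not analysed here, so no value below carries a spread between replicates and none was tested. Expression values were not analysed here, so the retinal identity of the cells was not checked.

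Forkhead factors bind DNA through a winged-helix domain that in many members recognises a TAAACA-like core. Foxn proteins can bind an alternative site with the core GACGC. Foxn1 is the factor lost in nude mice and directs thymic epithelium and hair follicle development. Foxn4 acts in retinal progenitors, where it promotes amacrine and horizontal cell fates. Foxn3 is known mainly as a transcriptional repressor, and Foxn2 is its close relative. Rfx3 binds X-box motifs and activates genes needed to build cilia. Both Foxn antibody targets, Foxn3 and Foxn4, are thus products of the genes examined, and peaks in those genes are places where a list marks a factor's own gene.

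In the Foxn windows lay 22 peaks, 7 from the Foxn3 list, 5 from the Foxn4 list and 10 from the Rfx3 list. Merging overlapping peaks gave 12 regions, of which 7 were at Foxn3, 3 at Foxn2, 2 at Foxn4 and 0 at Foxn1. A Foxn3 peak was present at 3 of the 4 genes (Foxn2, Foxn3 and Foxn4), against 27.4% of all protein-coding genes with the same kind of window. A Foxn4 peak was present at 2 of 4 (Foxn3 and Foxn4), against 19.9%, and an Rfx3 peak at 3 of 4 (Foxn2, Foxn3 and Foxn4), against 33%. A peak of any list was present at 3 of 4, against 40.4%. A region holding all lists occurred at 2 of 4 genes, Foxn3 and Foxn4, against 10.8%. With 4 genes these shares are descriptions only. The Foxn3 window is 474 kb long, and those of Foxn1, Foxn2 and Foxn4 are 129, 150 and 120 kb, against a median of 117 kb over all genes. Per 100 kb of window, the lists together held 2.96 peaks at Foxn3, 3.33 at Foxn4 and 2.67 at Foxn2, against a mean of 0.960 over all genes. By this density 90.1%, 91.2% and 87.3% of genes respectively were lower, and among the 557 genes of 300 kb or more Foxn3 was above 99.8%. Per 100 kb of gene body alone the values were 3.75 at Foxn3, 14.8 at Foxn4 (3 peaks) and 2.01 at Foxn2 (1 peak), the same order with wider differences.

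**Figure D1:**
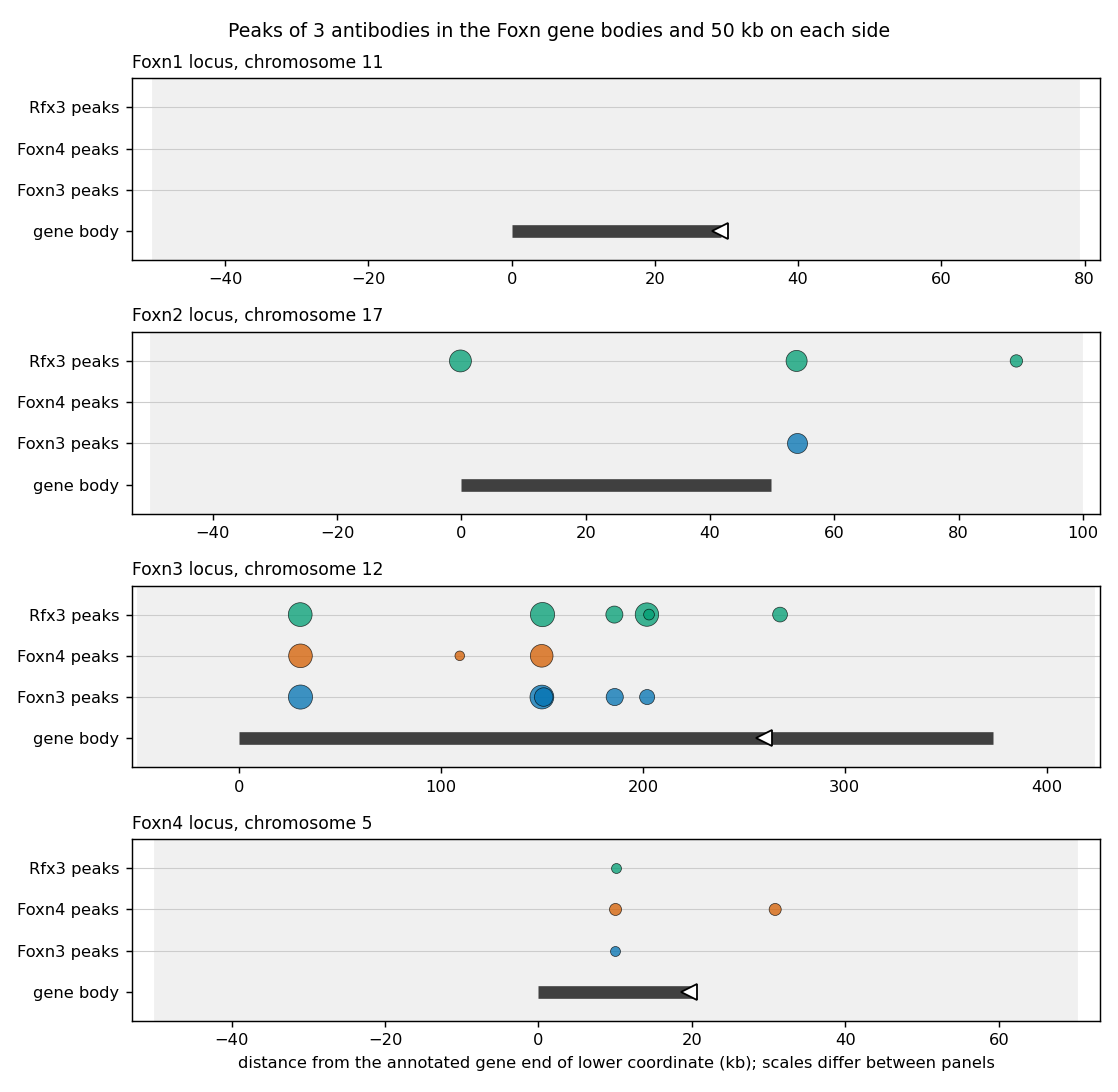
Map of each Foxn gene body (dark bar) and 50 kb on each side (grey), in kb from the annotated end of lower coordinate. Circles are peaks of the Foxn3, Foxn4 and Rfx3 lists, larger where more of the list scored lower, and the white arrowhead is the listed transcription start where the promoter table has one; Foxn3 carries 14 of the 22 peaks and Foxn1 none.

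The Foxn3 gene (RefSeq gene 71375, mm10 chromosome 12, 99190081 to 99563667) held 14 peaks, all inside the 374 kb gene body, and none in the 50 kb on either side. It had 6 Rfx3 peaks, more than any other of the 21887 genes has in its body, where the next highest number was 5, at 5 genes. It had 5 Foxn3 peaks, and only Tex14, a gene needed for germ-cell intercellular bridges, had more, with 6. Some of the Rfx3 and Foxn3 peaks counted here also overlap genes nested in Foxn3, namely 3300002A11Rik and Gm51999, which are described below. Its 3 Foxn4 peaks were matched or passed by 57 genes including Foxn3 itself. Among the 557 genes of 300 kb or more, 25.3% had a Foxn3 peak in the body, 35.9% a Foxn4 peak and 30% an Rfx3 peak, and Foxn3 had the most peaks of all lists summed, against a median of 1. It was also among the 0.898% of these long genes (5 of 557) with at least 2 regions of every list in the body. The body of Foxn3 is longer than that of 98.2% of genes, and with 50 kb added on each side its place is less high. By that window 60 genes, Foxn3 included, had at least 6 Rfx3 peaks, 67 at least 5 Foxn3 peaks, 290 at least 3 Foxn4 peaks and 33 at least 14 peaks in all. The places by gene body also depend on how neighbouring peaks are counted. If peaks of a list up to 500 bp apart are counted once, Foxn3 has 5 Rfx3 peaks and 6 genes have at least as many. With only peaks at or above the median score of their list it has 3 Rfx3 peaks, and 10 genes have at least as many.

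**Figure D2:**
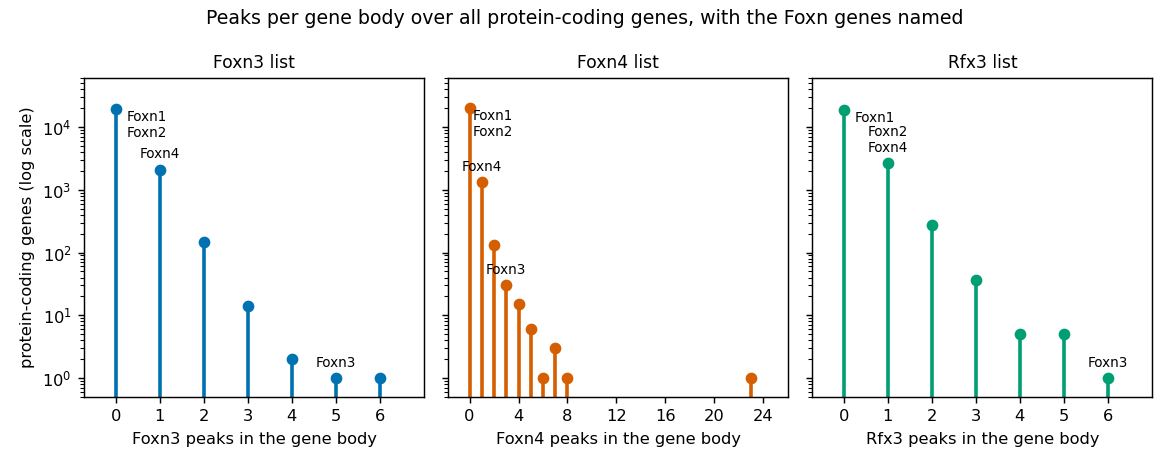
Number of protein-coding genes (log axis) by the number of peaks in the gene body, 1 panel per list, with the Foxn genes written at their own count. Foxn3 stands at 5 Foxn3, 3 Foxn4 and 6 Rfx3 peaks, while Foxn1, Foxn2 and Foxn4 stand at 0 or 1 in every panel.

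The score in each list is the authors' own value for a peak. Its scaling is not stated, so each peak is placed by the percentage of its own list with a lower score. In the Foxn3 gene 2 regions held peaks of all lists. The first spans chromosome 12, 99219924 to 99220917, and lies 29.8 kb inside the gene from its lower end. Its Foxn3 peak (99220339 to 99220762, score 423) was higher than 99.1% of that list and ranked 26 of 2794. Its Foxn4 peak (99220386 to 99220712, score 15.1) was higher than 94.7% of its list, and its Rfx3 peak (99219924 to 99220917, score 652) higher than 96.0%. The midpoints of the Foxn3 and Foxn4 peaks were 1.5 bp apart, and the Rfx3 midpoint lay 130 bp from that of Foxn3. All 875 regions with every list were ranked by the lowest of their percentiles, taking the highest-scoring peak of each list in a region. This region was number 2 from the top. Foxn3, Foxn4 and Rfx3 signal was thus high within each list at the same place in the Foxn3 gene.

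The second such region spans 99339493 to 99341298, 149 kb inside the gene from its lower end. It is a single Rfx3 peak of 1806 bp with a score of 1932, ranked 8 of 3981 by score and 4 by width in the Rfx3 list. A pair of Foxn3 peaks lay within it, separated by 447 bp. Overlap with 2 or more Foxn3 peaks, by any base, occurred in 28 of 3981 Rfx3 peaks (0.703%), and the median width in that list was 469 bp. The left one (99339791 to 99340363, score 231) was higher than 96.1% of the Foxn3 list, and the right one (99340811 to 99341152, score 33.6) higher than 53.8%. The Foxn4 peak (99339710 to 99340279, score 11.6), higher than 86.0% of its list, overlapped only the left Foxn3 peak, with midpoints 82.5 bp apart. The right Foxn3 peak covers the annotated start of 3300002A11Rik, a long noncoding RNA gene (99341031 to 99361828) inside Foxn3. With the higher of its Foxn3 peaks taken, the lowest percentile of this region was that of its Foxn4 peak, and it was number 15 of the 875.

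Further along the gene, at 99375688 to 99376320, an Rfx3 peak (score 65) and a Foxn3 peak (score 27.1) both fell in the lower part of their lists, above 43.3% and 43.8% of peaks. At 99391642 to 99392564 the lists diverged. The Rfx3 peak there (score 462) was higher than 92.8% of its list, whereas the Foxn3 peak inside it (99392038 to 99392371, score 21.5) was higher than only 31.0%. The gap of 61.8 percentage points exceeded that in 99.2% of the 1361 regions with Foxn3 and Rfx3 but no Foxn4, whose median gap was 13.1. This region covers the lower end of Gm51999, a short protein-coding gene model (99392166 to 99393644) inside Foxn3, and a weak Rfx3 peak (99392921 to 99393355, score 28, above 9.75% of its list) follows 356 bp later within the same gene model. The remaining Foxn3-gene peaks had a single list each. The Foxn4 peak at 99299229 to 99299610 (score 4.44) stood above 5.18% of the Foxn4 peaks. The Rfx3 peak at 99457804 to 99458234 (score 48) stood above 29.4% of the Rfx3 peaks.

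**Figure D3:**
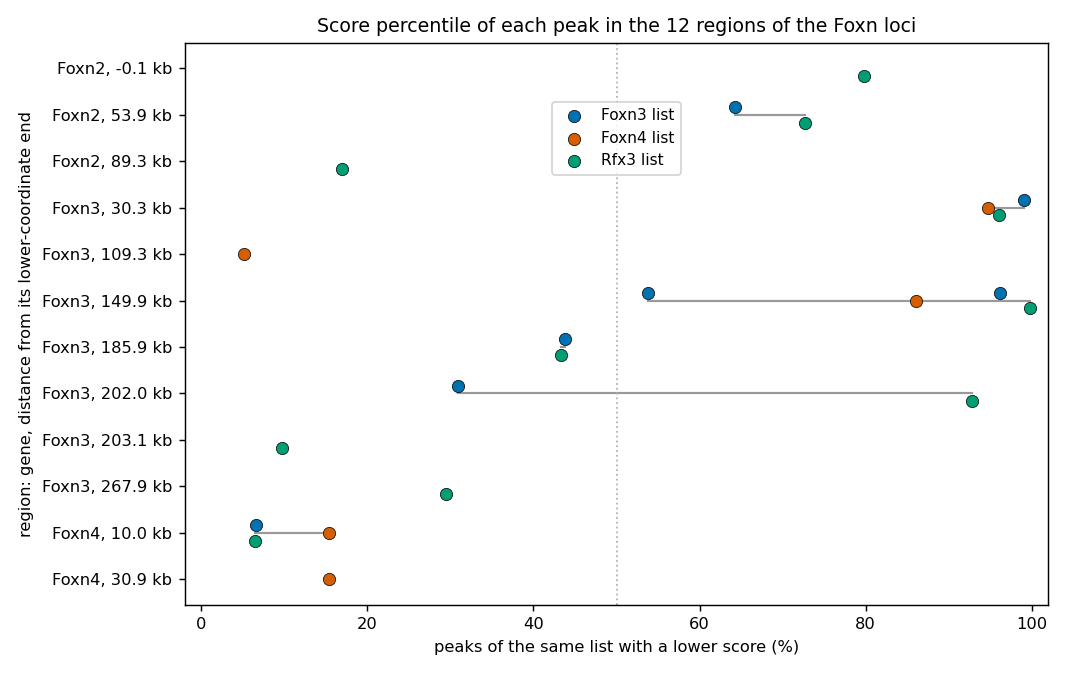
Share of the same list with a lower score (x axis, %) for each peak of the 12 regions, labelled by gene and distance from its lower-coordinate end; grey lines join the lowest and highest peak of a region and the dotted line marks 50%. The Foxn3 regions at 30.3 and 149.9 kb reach 99.1% and 99.8%, while every peak at Foxn4 lies at 15.4% or lower.

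The promoter table, taken from RefSeq (GRCm38.p6, the mm10 assembly), has entries for Foxn1, Foxn3 and Foxn4. None of these promoters was touched by a peak. For Foxn3, transcribed from the minus strand, the listed start is at 99450074, which is 114 kb inside the upper annotated end of the gene. The nearest peak was the weak Rfx3 peak 7730 bp upstream of it, and the other 6 regions lay 56.7 to 229 kb downstream. At the upper end itself, 174 bp from the noncoding gene Gm26839, there was no peak nearer than 63.9 kb. The 250 bases before each listed start are shown so that promoters of the family without a peak can be set against promoters in the same windows that carry one. They read 5′ to 3′ on the gene's strand, and capitals mark matches on either strand to the forkhead core TAAACA, the alternative forkhead site GACGC or the X-box arms GTTGCC and GTTACC.
Foxn1 promoter, minus strand, chr11:78386609-78386858: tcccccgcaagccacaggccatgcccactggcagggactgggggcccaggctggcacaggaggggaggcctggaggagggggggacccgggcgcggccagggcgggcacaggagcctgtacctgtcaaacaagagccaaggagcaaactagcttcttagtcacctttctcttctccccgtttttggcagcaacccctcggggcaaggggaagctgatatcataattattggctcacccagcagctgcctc
Foxn3 promoter, minus strand, chr12:99450075-99450324: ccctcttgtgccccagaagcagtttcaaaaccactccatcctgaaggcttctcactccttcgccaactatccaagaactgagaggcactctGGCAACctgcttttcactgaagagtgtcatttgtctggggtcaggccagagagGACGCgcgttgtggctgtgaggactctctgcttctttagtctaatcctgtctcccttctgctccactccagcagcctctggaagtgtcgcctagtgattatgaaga
Foxn4 promoter, minus strand, chr5:114273762-114274011: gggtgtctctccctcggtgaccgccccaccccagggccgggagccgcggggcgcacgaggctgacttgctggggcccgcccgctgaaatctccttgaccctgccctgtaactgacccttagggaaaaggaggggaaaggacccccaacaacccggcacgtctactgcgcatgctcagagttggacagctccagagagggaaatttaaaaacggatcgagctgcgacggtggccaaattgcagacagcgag

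The 3 listed promoters in the Foxn windows that peaks do cover belong to other genes, and are shown for that contrast. Foxn2 has no listed promoter and was not assessed here, although an Rfx3 peak crosses its lower annotated end. The promoters of 3300002A11Rik and Gm51999 lie inside Foxn3, and that of Ppp1r21 lies in the Foxn2 window.
3300002A11Rik promoter, plus strand, chr12:99340781-99341030: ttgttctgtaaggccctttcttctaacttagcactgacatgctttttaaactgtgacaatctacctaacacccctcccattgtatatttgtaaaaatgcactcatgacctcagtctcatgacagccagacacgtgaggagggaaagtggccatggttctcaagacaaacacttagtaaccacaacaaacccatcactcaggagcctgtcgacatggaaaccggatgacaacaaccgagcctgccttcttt
Gm51999 promoter, plus strand, chr12:99391916-99392165: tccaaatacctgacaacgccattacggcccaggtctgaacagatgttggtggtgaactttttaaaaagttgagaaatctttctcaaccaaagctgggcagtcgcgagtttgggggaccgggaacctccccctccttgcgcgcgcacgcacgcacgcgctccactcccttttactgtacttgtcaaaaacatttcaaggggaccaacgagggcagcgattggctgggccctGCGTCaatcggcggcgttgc
Ppp1r21 promoter, plus strand, chr17:88529874-88530123: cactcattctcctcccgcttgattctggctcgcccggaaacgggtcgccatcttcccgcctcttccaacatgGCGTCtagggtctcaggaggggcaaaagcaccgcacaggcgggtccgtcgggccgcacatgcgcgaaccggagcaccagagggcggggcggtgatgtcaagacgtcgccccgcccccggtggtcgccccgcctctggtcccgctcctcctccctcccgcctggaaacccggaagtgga

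All 250 bases of each of these 3 promoters were covered by an Rfx3 peak. A Foxn3 peak covered 220 bases of the 3300002A11Rik promoter and 128 of the Gm51999 promoter, and no Foxn4 peak reached any of them. The GACGC site occurred once in each of the Gm51999, Ppp1r21 and Foxn3 promoters, and 22.6% of all 32851 listed promoters hold it in a window of the same length. The X-box arm GTTGCC occurred once, as its reverse complement, in the Foxn3 promoter (10.4% of all promoters). Neither TAAACA (12% of all promoters) nor GTTACC (6.06%) occurred in any of the 6. The Foxn1, Foxn4 and 3300002A11Rik promoters held no match. Matches were thus found with and without a peak, and a match is a string of letters here, not a binding site.

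The Foxn4 gene (RefSeq gene 116810, chromosome 5, 114254164 to 114274418, minus strand) held 1 region of all lists, about 10 kb from either annotated end and 9.25 kb downstream of the listed start at 114273761. The Foxn3 peak (114263934 to 114264471) had a score of 12.1, above 6.55% of its list. The Rfx3 peak (114263934 to 114264515) had a score of 25, above 6.48% of its list, and starts at the same base. The Foxn4 peak (114264063 to 114264347) had a score of 5.33, above 15.4% of its list, a score held by 409 peaks of that list. Midpoints lay between 2.5 and 22 bp apart. By the highest of its percentiles this was number 8 from the bottom among the 875 regions with every list, and the first Foxn3-gene region was number 834. By the lowest, the measure used above for the Foxn3-gene regions, the Foxn4-gene region was number 692 from the top. The scores thus stood near the low end of each list, unlike those of the first Foxn3 region. A second Foxn4 peak, at 114284853 to 114285187 with the same score, lay 10.4 kb beyond the upper end, between Foxn4 and Myo1h, a myosin gene, and met neither other list.

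**Figure D4:**
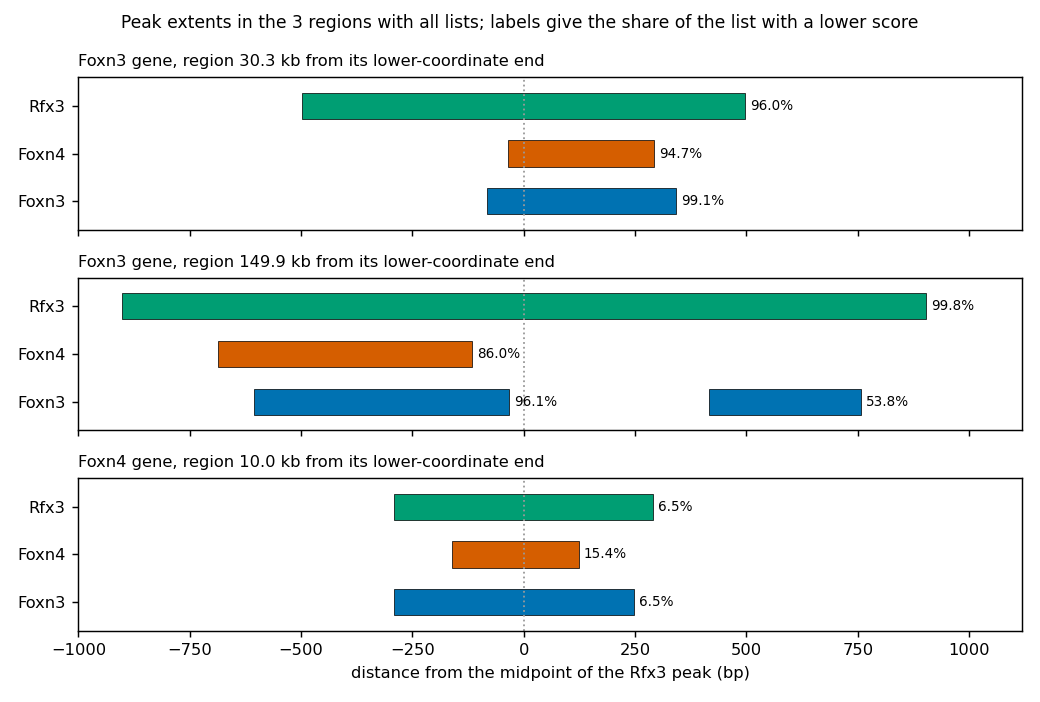
Extent of each peak in the 3 regions where every list has a peak, in bp from the midpoint of the Rfx3 peak, with the share of the list that scored lower written beside each bar. In both Foxn3-gene regions the Foxn4 bar lies within the Rfx3 bar and over a Foxn3 bar, and the Foxn4-gene region has the same arrangement at 6.48% to 15.4% of the lists.

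The Foxn2 gene (RefSeq gene 14236, chromosome 17, 88440704 to 88490533) was the only family member with a peak at an annotated end. The Rfx3 peak across its lower end reaches 495 bp outside and 212 bp inside the gene. Its score of 208 was higher than 79.8% of the Rfx3 list. Beyond the other end, 3.91 kb away, an Rfx3 peak (88494440 to 88494854, score 151, above 72.7% of its list) enclosed a Foxn3 peak (88494514 to 88494793, score 43.0, above 64.3%), with midpoints 6.5 bp apart. The third Rfx3 peak (88529682 to 88530336, score 35, above 16.96% of its list) covers the start of the neighbour Ppp1r21, which encodes a protein of endosomal traffic, and is counted in the Foxn2 window although it lies 39.1 kb from that gene. No Foxn4 peak lay in the Foxn2 window.

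The Foxn1 gene (RefSeq gene 15218, chromosome 11, 78357577 to 78386783, minus strand) had no peak of any list in its 129 kb window, which also holds all or part of 5 other protein-coding genes. The nearest was an Rfx3 peak (score 34, above 16.03% of its list) 56.0 kb below the gene, at the start of Spag5, a mitotic spindle gene. At the other loci, the farthest peak inside the limit of 50 kb was the Ppp1r21 peak at 39.1 kb. The nearest outside it was an overlapping pair 63.9 kb above Foxn3, at the noncoding gene 1700064M15Rik, with a Foxn3 peak above 88.4% and an Rfx3 peak above 96.9% of their lists.

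The Foxn3 list is numbered with gaps: 851 of its 3645 numbers (23.3%) are absent, and 23.2% of the stretches between neighbouring Foxn3 peaks of a chromosome lack at least 1 number. The Foxn4 and Rfx3 lists each have 0 absent numbers. From the last Foxn3 peak before the Foxn3 window to the first after it the numbers run from 832 to 838 with none absent. Around Foxn1, number 537 is absent between peaks 361 kb apart. Around Foxn2, number 1540 is absent in the 219 kb before the gene's Foxn3 peak, a stretch that includes the end covered by Rfx3, and number 1542 in the 519 kb after it. Around Foxn4, number 2596 is absent in the 390 kb before the Foxn3 peak in the gene. What the absent numbers stood for is not stated, and their part in the Foxn3 counts at these loci was not tested.

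Sharing in the Foxn windows was compared with that of the whole lists. All 7 Foxn3 peaks overlapped an Rfx3 peak by at least 1 bp, against 81.1% of the Foxn3 list, and 3 of 7 overlapped a Foxn4 peak, against 40.1%. Of the 5 Foxn4 peaks, 3 overlapped Foxn3 (38% of the list) and the same 3 overlapped Rfx3 (36%). Of the 10 Rfx3 peaks, 6 overlapped Foxn3 (56.4% of the list) and 3 overlapped Foxn4 (26.5%). Regions with every list made up 3 of 12, against 14.2% of all 6155 merged regions. With so few peaks these shares are descriptions.

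The genes most like each Foxn gene were sought by the summed differences of their 3 peak counts in the same kind of window. Ciao3, an iron-sulfur assembly gene, and Tuba1a, which encodes an alpha-tubulin, had the same 5 Foxn3, 3 Foxn4 and 6 Rfx3 peaks as Foxn3, around genes of 9.56 and 3.66 kb in place of 374 kb. Next came Mast3, a kinase gene, with 6, 3 and 6. At Foxn4, 128 genes had the identical counts, the closest in length being Aldh6a1, Lrrc42 and Glo1. At Foxn2 there were 70, the closest in length being Elfn2, Tango2 and Rab7.

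Other forkhead genes were examined in the same way, as a list of 40. A Foxn3 peak lay in the window of 12 of them (30%, against 27.4% of all genes), a Foxn4 peak in 5 (12.5%, against 19.9%) and an Rfx3 peak in 12 (30%, against 33%). The median number of peaks was 0, as over all genes, and 15 of the 40 windows held any peak, against 40.4% of all genes. Regions with every list occurred at Foxi3, Foxk2 and Foxp2. Foxp2, a regulator of neuronal development with a 641 kb window, had the most peaks, with 2 Foxn3, 2 Foxn4 and 1 Rfx3. Foxi3, a regulator of craniofacial placodes, followed with 1, 2 and 1, level with Foxo6 and Foxr1 at 4 peaks in all. None of these 40 genes had over 5 peaks, against 14 in the longer window of Foxn3. Per 100 kb of window, Foxi3 had 3.83 peaks, Foxr1 3.75 and Foxo6 3.33, all above the 2.96 of Foxn3, and the rest of the list was lower. The mean over all genes was 1.23, and 33 of the 21887, Foxn3 included, had at least 14.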

How the data were processed

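Per the submitters' processing notes, cutadapt, Bowtie2, UMI-tools, bedtools and SEACR were used with the mm10 build; their roles, settings and any use of the IgG libraries are not given in the sources used here. The authors deposited 1 peak list per antibody with a score for each peak. Which libraries entered a list and how the score is scaled are not stated, and read depth is unknown, so no interval for depth is given. Positions were read counting from 1 (BED counts from 0). Gene extents came from a RefSeq table of GRCm38.p6 (21887 protein-coding genes of the autosomes, X and Y). It holds no exons, so peaks are not placed in exons or introns. Protein sequences were not used here. A peak belonged to a gene if it overlapped the body or the 50 kb on either side by 1 bp. Overlapping peaks were merged. The percentile of a peak is the share of its list with a strictly lower score. Where a region held several peaks of a list, the highest percentile stood for that list in region ranks and gaps. No test was run, since replicates are not separated. Interval functions were tested on simulated data. Python 3.11.15, pandas 2.3.3 and numpy 2.4.6 were used. Named genes were the 4 Foxn genes, genes whose ends or bodies their peaks touch, up to 3 genes of most similar counts for members with 3 or more peaks, and forkhead genes with a region of every list or the most peaks. Tex14, Gm26839, 1700064M15Rik and Spag5 were named after their values were seen. The members and lists were chosen with earlier results of these data known. A result for 1 further gene is not reported here.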

Additional observations from a re-analysis of the deposited data

How the results depend on the processing

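The alternatives tried were windows of 10 kb, 100 kb or the gene body alone, assignment by peak midpoint, peaks of at least 150 bp, overlap of at least 50% of the shorter peak, joining of peaks up to 500 bp apart, and peaks at or above the median score of their list. The last changed the totals by over 1.5 times: 4 Foxn3, 2 Foxn4 and 5 Rfx3 peaks and 5 regions remained in the Foxn windows, from 7, 5, 10 and 12, because it removes the lower-scoring peaks, including every peak at Foxn4. Regions with every list numbered 3 under all of these settings except the score filter, which left 2; assignment by midpoint was not run for regions. The other 28 values of these totals were within 1.5 times of the main ones. No paired analysis was possible because the lists do not separate replicates; for the same reason no replicate was left out. Of the peak counts for single genes, 61 of 72 were within 1.5 times, but many of these could not have moved. Foxn1 had no peak of any list and Foxn2 no Foxn4 peak. A smaller window, the midpoint rule or a filter could not change those counts. The narrowest peak in the Foxn windows was 280 bp wide, so the limit of 150 bp could change no count or total there. Agreement in these cases was fixed in advance and says nothing about stability. Peak counts inside the Foxn3 body and the number of genes with as many, with alternatives chosen after seeing the data, were within 1.5 times of the main value in 18 of 24 cases. With the score filter, 99 genes had at least as many Foxn4 peaks as the Foxn3 gene, from 57, and with peaks up to 500 bp apart counted once, 4 genes had at least as many Foxn3 peaks, from 2.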

Other observations

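Genes known to act with or downstream of Foxn4 in retinal progenitors were looked at as a list of 12, by peaks in the gene body or within 50 kb. A Foxn4 peak lay in the window of 5 of them (41.7%, against 19.9% of all genes): Atoh7, Neurod1, Neurod4, Prox1 and Rorb. An Rfx3 peak lay in 3 (25%, against 33%), at Dll4, Neurod1 and Onecut2, and a Foxn3 peak in 0 (against 27.4%). Rorb, a nuclear receptor needed for amacrine and horizontal cells, had 2 Foxn4 peaks and no other. Neurod1, a proneural factor of photoreceptor and amacrine cells, had 1 Foxn4 and 1 Rfx3 peak. Ptf1a, the amacrine and horizontal cell determinant known as a Foxn4 target, had no peak of any list in its window, and neither did Lhx1, Onecut1, Tfap2a or Tfap2b. No test was made of these counts.

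The gene with the most peaks in its body over all lists was Cwc22, a splicing factor gene, with 23 Foxn4 peaks and neither Foxn3 nor Rfx3, followed by Tex14 with 19 and Foxn3 with 14. The next highest number of Foxn4 peaks in a body was 8, and why Cwc22 stood apart in that list was not tested. Among genes of 300 kb or more, 5 (0.898%) had at least 2 regions of every list in the body: Auts2, Celf2, Dock4, Foxn3 and Msi2. Msi2, an RNA-binding protein of progenitors, came nearest to Foxn3 with 4 Foxn3, 4 Foxn4 and 5 Rfx3 peaks.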
